A study of Mus musculus with 6 samples.

Results

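The vascular endothelial growth factor (VEGF) family was followed in bulk RNA-seq counts of mouse tail tendons. Its 10 genes were taken by symbol from the 44788 symbols of the count table and comprise 5 ligands (*Vegfa*, *Vegfb*, *Vegfc*, *Figf* and *Pgf*), 3 receptor tyrosine kinases (*Flt1*, *Kdr* and *Flt4*) and 2 neuropilins (*Nrp1* and *Nrp2*). *Figf* is the older symbol of *Vegfd*. All 10 were found, and 9 had enough counts to be tested. Tail tendons of C57BL/6 mice, 3 weeks old by the sample labels, gave 3 WT and 3 *Mkx*-/- libraries, the latter from mice without the tendon transcription factor Mohawk, used as a model of heterotopic ossification of tendon. The study's text gives an older age for the mice, and no treatment was applied. The sources used here do not state whether a library is 1 animal or a pool, nor which exons of *Mkx* were removed. The p-values below therefore measure the spread between these libraries, which may be technical in part. By the Y-linked counts given below, WT replicate 3 did not come from the same animals as the other WT libraries.

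VEGF ligands are secreted dimers that drive the growth of blood and lymphatic vessels. *Vegfa* encodes the main angiogenic ligand and signals through *Kdr* (VEGFR2), while *Flt1* (VEGFR1) binds the same ligand tightly with weak kinase activity and is the receptor of the products of *Vegfb* and *Pgf* (placental growth factor). The products of *Vegfc* and *Figf* act mainly through *Flt4* (VEGFR3) on lymphatic vessels, and neuropilins are co-receptors shared with class 3 semaphorins. Mature tendon is poorly vascularized, and the receptors are carried mostly by endothelial cells.

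The libraries held between 10835070 and 14160301 counts, and the 10 genes together took between 1712 and 2520 of them. Levels are given as normalized CPM, counts scaled to library size after edgeR's TMM scaling, and the test throughout was edgeR's quasi-likelihood test, adjusted by Benjamini-Hochberg over the 14550 genes tested, where a gene was past the test at an adjusted p under 0.05. *Mkx* itself fell from 138 ± 4.92 CPM in WT to 45.7 ± 9.68 CPM in *Mkx*-/- tendons (SD, n = 3 each), with reads left in all 3 *Mkx*-/- libraries. WT replicate 3 was the only library with counts on the Y-linked gene *Ddx3y* (301, against 0 in the other 5), so sex differed within WT and not within *Mkx*-/-. *Mkx*-/- replicate 3 stood apart in smooth muscle genes: *Myh11*, a smooth muscle myosin, was at 202 CPM there and between 1.97 and 2.75 CPM in the other 5 libraries. The labelled tissue was checked against 9 tendon genes, of which 3 were higher and 6 lower in *Mkx*-/- tendons. *Col1a2*, *Col1a1* and *Fmod* were the most abundant, at -1.02, -0.68 and 0.11 on the log2 scale. *Thbs4* was the 1 gene past the test (1.26), where 3.18% of all genes tested were higher past it. Together *Col1a1*, *Col1a2* and *Sparc* took 42.0% to 48.5% of the counts in WT and 28.3% to 34.8% in *Mkx*-/- libraries.

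In *Mkx*-/- tendons *Nrp2* was lower, *Pgf* was higher in every library without passing the test, and *Vegfa*, *Vegfb*, *Figf*, *Flt1*, *Kdr*, *Flt4* and *Nrp1* overlapped between the genotypes. In bulk tissue, fewer cells of a type and less RNA per cell cannot be told apart. Of the 9 genes tested, 1 passed the test, *Nrp2*, where 5.44% of all genes tested passed it in either direction and 2.26% were lower. A fold change of at least 2 in either direction was then added to the edgeR test. By both limits 0 of the 9 were called, against 3.22% of all genes tested. The study set such limits on DESeq2, not on edgeR. In DESeq2 here *Pgf* met both (log2 fold change 1.68, DESeq2 adjusted p = 0.00975). *Nrp2* met only the limit on adjusted p (log2 fold change -0.63, DESeq2 adjusted p = 0.000192). The groups did not overlap in 3 of the 9 (*Vegfc*, *Pgf* and *Nrp2*), close to the 28.2% of all genes tested for which this held. An unadjusted p under 0.05 was reached by *Pgf* and *Nrp2*, where 22.6% of all genes tested reached it. The median log2 fold change of the 9 genes was 0.21, beside -0.0037 over all genes tested.

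**Figure D1:**
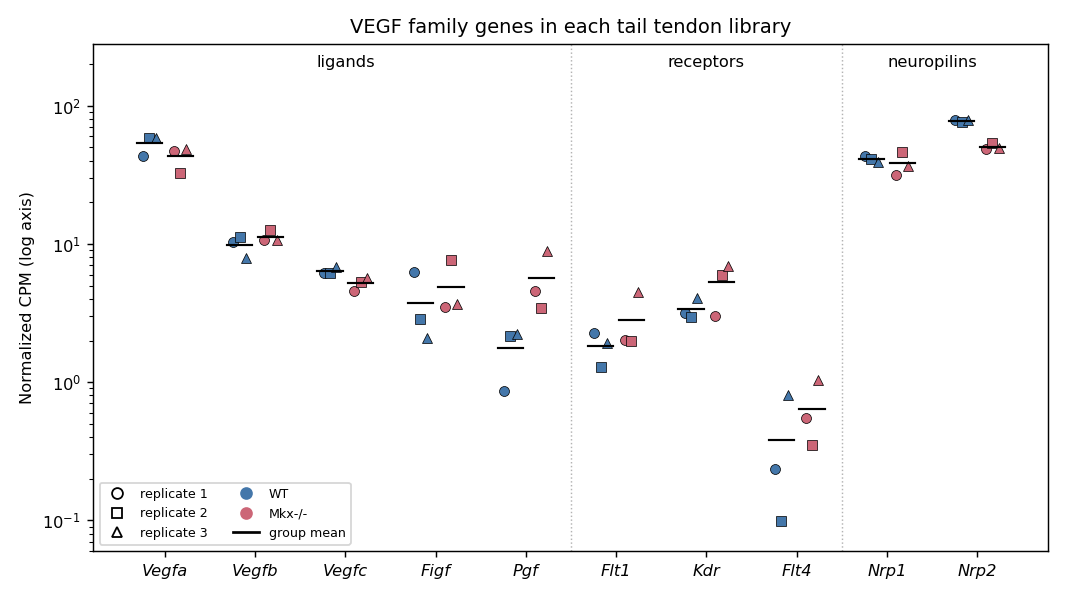
Normalized CPM of the 10 VEGF family genes (y axis, log scale) in each library, with WT in blue, *Mkx*-/- in red, the replicate number by symbol and the group mean as a bar. *Nrp2* lies between 76.8 and 78.5 CPM in WT and between 48.8 and 53.4 CPM in *Mkx*-/- tendons, and *Flt4* is at or below 1.03 CPM in every library.

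The stretches of 250 bases before the RefSeq start sites of *Nrp2*, *Pgf*, *Kdr* and *Flt1* are shown because the comparisons below turn on these genes. They are from the RefSeq promoter table on build GRCm38.p6, in which all 10 genes matched, and are printed 5′ to 3′ on the gene's strand, at chr1:62703067-62703316 (plus strand), chr12:85177314-85177563 (minus), chr5:75978456-75978705 (minus) and chr5:147726012-147726261 (minus). *Pgf* has another start in the table, not shown. Capitals mark GGGCGG (the GC box bound by Sp1) and GGAAG (a core bound by ETS factors) on either strand, and neighbouring GC boxes can overlap.
Nrp2: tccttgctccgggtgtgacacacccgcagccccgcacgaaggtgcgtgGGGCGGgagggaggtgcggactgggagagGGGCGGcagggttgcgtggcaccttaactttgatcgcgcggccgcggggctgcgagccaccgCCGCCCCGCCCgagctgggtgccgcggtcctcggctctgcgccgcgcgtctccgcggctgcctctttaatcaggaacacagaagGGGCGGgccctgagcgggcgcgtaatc
Pgf: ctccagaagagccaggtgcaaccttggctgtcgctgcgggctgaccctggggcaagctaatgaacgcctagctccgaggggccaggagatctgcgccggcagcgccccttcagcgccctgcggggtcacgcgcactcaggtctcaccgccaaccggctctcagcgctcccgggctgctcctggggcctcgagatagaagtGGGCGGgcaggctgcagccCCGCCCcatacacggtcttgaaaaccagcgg
Kdr: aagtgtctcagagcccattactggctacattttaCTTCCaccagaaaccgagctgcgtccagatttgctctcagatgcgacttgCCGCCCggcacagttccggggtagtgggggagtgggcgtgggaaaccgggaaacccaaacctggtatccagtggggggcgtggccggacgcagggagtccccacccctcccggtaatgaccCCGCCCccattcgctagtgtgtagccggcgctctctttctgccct
Flt1: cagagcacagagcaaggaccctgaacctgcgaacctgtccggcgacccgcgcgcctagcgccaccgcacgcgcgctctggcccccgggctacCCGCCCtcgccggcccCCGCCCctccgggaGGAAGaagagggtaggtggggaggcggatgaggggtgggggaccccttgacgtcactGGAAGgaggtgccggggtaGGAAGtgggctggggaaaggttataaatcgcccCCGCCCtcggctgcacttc
The *Nrp2* stretch held 5 GC boxes and 0 ETS cores, and that of *Pgf* held 2 and 0. The stretch of *Kdr* held 2 GC boxes and 1 ETS core, and that of *Flt1* held 3 of each. ETS cores were not particular to the receptors. They were also before *Nrp1* (3), *Figf* (1) and both starts of *Vegfa* (1 each). A GC box was present in 32.7% and an ETS core in 64.1% of all 32851 stretches of this length in the table. The core of the hypoxia response element, ACGTG on either strand, was in 16.6% of them. It was found for the 10 genes in 1 stretch only, before the downstream start of *Vegfa*. These letters describe the windows and do not show binding.

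*Nrp2*, a co-receptor for the products of *Vegfc* and *Figf* and for class 3 semaphorins, was the most abundant of the 10 genes before correction for length. In mm9 it spans 62749859 to 62865269 of chromosome 1, plus strand. Its level was 78.5, 76.8 and 78.3 CPM in the WT libraries and 48.8, 53.4 and 49.7 CPM in the *Mkx*-/- libraries. The libraries of each genotype lay close together and the groups did not overlap. The level fell from 77.9 ± 0.964 to 50.6 ± 2.43 CPM (SD, n = 3 each). On the log2 scale the change was -0.62 (SE 0.11, 95% confidence interval -0.86 to -0.38, edgeR adjusted p = 0.0168). The fold change stayed between -0.66 and -0.61 when each library was left out in turn, but the adjusted p in edgeR then ran from 0.0183 to 0.0705 and was under 0.05 only without WT replicate 1. Scaling by library size alone gave -0.37 (edgeR adjusted p = 0.134).

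*Nrp1*, a co-receptor for the products of *Vegfa* and *Pgf*, overlapped between the genotypes. It spans 130882973 to 131029362 of chromosome 8, plus strand, and holds the microRNA gene *Mir1903*. Its level was 42.9, 41.3 and 38.9 CPM in WT and 31.7, 46.2 and 36.9 CPM in *Mkx*-/- libraries, so the *Mkx*-/- libraries lay on both sides of WT. The log2 fold change was -0.10 with a 95% confidence interval of -0.45 to 0.25 (edgeR adjusted p = 0.750), and its sign turned under scaling by library size alone (0.16). The ratio of *Nrp2* to *Nrp1* counts, which needs no scaling between libraries, was 1.83, 1.86 and 2.01 in WT and 1.54, 1.16 and 1.35 in *Mkx*-/- libraries. It was below WT in all 3 *Mkx*-/- libraries, with a log2 ratio of 0.92 ± 0.073 in WT and 0.42 ± 0.21 in *Mkx*-/- tendons (SD, n = 3 each; two-sided exact permutation test, p = 0.1, the smallest that 3 against 3 can give, and 0.3 when adjusted over the 6 ratios compared).

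Macrophage and leukocyte markers moved with *Nrp2*. The summed level of the 10 genes of this list was between 465 and 523 CPM in WT and between 287 and 349 CPM in *Mkx*-/- libraries. All 10 were lower at an unadjusted edgeR p under 0.05, where 10.1% of all genes tested were. *Csf1r*, *Mrc1* and *Emr1*, which mark macrophages, passed the test with -0.63, -1.14 and -1.09 on the log2 scale. Of all genes tested, 2.26% were lower past the test. *Lyz2*, the most abundant of the list, had -0.55 (edgeR adjusted p = 0.0728). Their part in the result for *Nrp2* was not tested. Lymphatic endothelial cells also carry *Nrp2*, and their defining markers *Prox1*, *Ccl21a* and *Mmrn1* were at or below 0.183 CPM in every library. *Lyve1*, *Pdpn* and *Reln*, the other genes of the lymphatic list, were above 25 CPM in every library, and 0 of these 3 passed the edgeR test. Their median log2 fold change was 0.078. *Reln* alone was higher at an unadjusted edgeR p under 0.05 (0.0097), where 12.5% of all genes tested were higher.

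**Figure D2:**
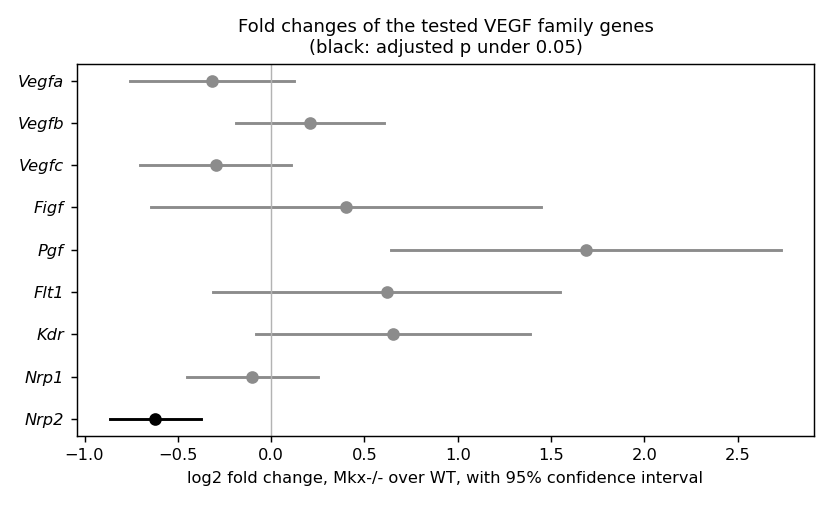
Log2 fold changes of the 9 tested genes, *Mkx*-/- over WT (x axis), with 95% confidence intervals from edgeR as bars and adjusted p under 0.05 in black. The interval of *Nrp2* (-0.86 to -0.38) and that of *Pgf* (0.64 to 2.73) exclude 0 before adjustment, and those of the other 7 genes include it.

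*Pgf*, whose product binds *Flt1* and amplifies angiogenesis in wounds and disease, had the largest fold change of the family. It spans 86507589 to 86518246 of chromosome 12, minus strand, in mm9. It was counted 11, 22 and 28 times in the WT libraries and 50, 49 and 112 times in the *Mkx*-/- libraries. As normalized levels these were 0.867, 2.16 and 2.24 CPM in WT and 4.58, 3.44 and 8.88 CPM in *Mkx*-/- libraries. Every *Mkx*-/- library was above every WT library, as for 14.6% of all genes tested, and *Mkx*-/- replicate 3 was the highest. The log2 fold change was 1.69 with a 95% confidence interval of 0.64 to 2.73, and its adjusted p of 0.0725 in edgeR missed the threshold while that of DESeq2, 0.00975, passed it. Without *Mkx*-/- replicate 3 the log2 fold change was 1.19 (edgeR adjusted p = 0.213).

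*Vegfa*, which spans 46153942 to 46169326 of chromosome 17, minus strand, had a lower mean in *Mkx*-/- tendons and did not pass the test. Its level was 43.1, 58.5 and 58.8 CPM in WT and 47.4, 32.6 and 49.0 CPM in *Mkx*-/- libraries, so 2 of the 3 *Mkx*-/- libraries lay within the WT range. The log2 fold change was -0.32 with a 95% confidence interval of -0.75 to 0.12 (edgeR adjusted p = 0.380), whose upper end is a 1.09-fold increase. The ratio of *Pgf* to *Vegfa* counts was 0.0210, 0.0377 and 0.0388 in WT and 0.0976, 0.107 and 0.182 in *Mkx*-/- libraries. The groups did not overlap, and the geometric means differed 3.95-fold (two-sided exact permutation test, p = 0.1, the smallest possible, and 0.3 when adjusted over the 6 ratios).

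*Vegfb*, a ligand of *Flt1* tied to fatty acid uptake more than to vessel growth, spans 7056963 to 7062141 of chromosome 19, minus strand. Its levels overlapped between the genotypes. It had 10.3, 11.2 and 7.93 CPM in WT and 10.7, 12.6 and 10.6 CPM in *Mkx*-/- libraries, with a log2 fold change of 0.21 (95% confidence interval -0.19 to 0.61, edgeR adjusted p = 0.529). The ratio of *Vegfb* to *Vegfa* overlapped between the groups, with a log2 difference of 0.54 (two-sided exact permutation test, p = 0.3).

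The lymphangiogenic ligands had fold changes of opposite sign and neither passed the test. *Vegfc* (chromosome 8, 55162886 to 55271808, plus strand) had 6.14, 6.18 and 6.81 CPM in WT and 4.58, 5.34 and 5.63 CPM in *Mkx*-/- libraries. All 3 *Mkx*-/- libraries were below WT, as for 13.6% of all genes tested, and the log2 fold change was -0.30 (95% confidence interval -0.70 to 0.11, edgeR adjusted p = 0.366). *Figf* (chromosome X, 160811310 to 160840582, plus strand) had 6.22, 2.85 and 2.08 CPM in WT and 3.48, 7.59 and 3.65 CPM in *Mkx*-/- libraries. WT replicate 1 and *Mkx*-/- replicate 2 held the highest levels, and the male library the lowest. Its log2 fold change of 0.40 (95% confidence interval -0.64 to 1.45, edgeR adjusted p = 0.655) ran from -0.067 without *Mkx*-/- replicate 2 to 1.01 without WT replicate 1. The log2 ratio of *Vegfc* to *Figf* overlapped between the groups, with a difference of -0.76 (two-sided exact permutation test, p = 0.3).

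Divided by exon length, the ligands can be set beside each other. Lengths were the union of a gene's exons in the GENCODE annotation of mm9, from 1582 bases for *Pgf* to 11583 for *Flt1*, and the exons the authors counted on are not stated. Of the summed ligand level per kb, *Vegfa* made up 43.9%, 51.6% and 55.9% in WT and 45.1%, 32.2% and 40.6% in *Mkx*-/- libraries. *Vegfb* followed with 20.2% to 28.2% in WT and 23.5% to 33.2% in *Mkx*-/- libraries. The share of *Pgf* was 2.40%, 5.17% and 5.78% in WT and 11.8%, 9.23% and 20.0% in *Mkx*-/- libraries, with no overlap. The share of *Vegfc* was 12.4% to 14.7% in WT and 9.87% to 11.9% in *Mkx*-/- libraries, also with no overlap. These shares sum to a whole, so a larger share of one ligand lowers the others.

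**Figure D3:**
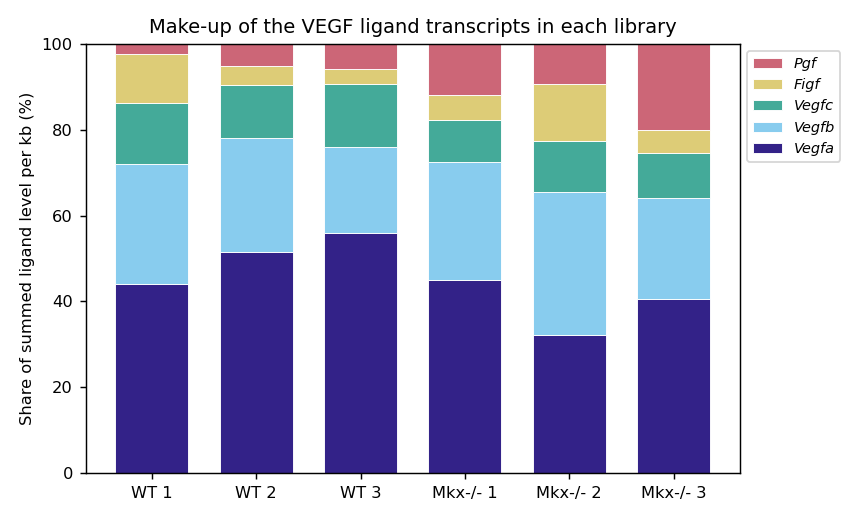
Share of each ligand in the summed VEGF ligand level per kb of exon (y axis, percent) in each library. *Pgf* takes 2.40% to 5.78% in WT and 9.23% to 20.0% in *Mkx*-/- libraries, and *Vegfa* is the largest share in every library but *Mkx*-/- replicate 2, where *Vegfb* has 33.2% and *Vegfa* 32.2%.

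The receptors were far below *Vegfa* and the neuropilins, and neither tested receptor passed the test (unadjusted p = 0.165 for *Flt1* and 0.0755 for *Kdr*). *Kdr* (chromosome 5, 76328852 to 76374483, minus strand) had 3.15, 2.94 and 4.09 CPM in WT and 3.02, 5.97 and 6.98 CPM in *Mkx*-/- libraries. *Mkx*-/- replicate 1 lay within the WT range and the other 2 above it. The log2 fold change was 0.65 (95% confidence interval -0.084 to 1.39, edgeR adjusted p = 0.278). *Flt1* (chromosome 5, 148373180 to 148537587, minus strand) had 2.28, 1.28 and 1.92 CPM in WT and 2.02, 1.97 and 4.52 CPM in *Mkx*-/- libraries, so 1 library, *Mkx*-/- replicate 3, stood above the others. Its log2 fold change was 0.62 (95% confidence interval -0.31 to 1.55, edgeR adjusted p = 0.418). Without that library it was 0.11 for *Flt1* and 0.42 for *Kdr* (edgeR adjusted p = 0.917 and 0.608). The ratio of *Flt1* to *Kdr* ran from 0.443 to 0.728 in WT and from 0.333 to 0.672 in *Mkx*-/- libraries (two-sided exact permutation test, p = 1).

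*Flt4*, the receptor of lymphatic endothelium (chromosome 11, 49422765 to 49466241, plus strand), was close to the limit of detection. It was counted 3, 1 and 10 times in WT and 6, 5 and 13 times in *Mkx*-/- libraries, and was removed by the filter on low counts. With the looser filter of 1 count in any library its log2 fold change was 0.72 with a standard error of 0.70 (edgeR adjusted p = 0.658). A difference in *Flt4* was not detectable at this depth.

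Per kb of exon, *Vegfa* was the highest and *Kdr*, *Flt1* and *Flt4* the lowest in both genotypes. In WT the order was *Vegfa* (12.5 ± 2.09 CPM per kb), *Nrp2* (8.19 ± 0.101), *Nrp1* (6.95 ± 0.341), *Vegfb* (6.11 ± 1.05), *Vegfc* (3.36 ± 0.197), *Figf* (1.54 ± 0.915), *Pgf* (1.11 ± 0.488), *Kdr* (0.466 ± 0.0835), *Flt1* (0.158 ± 0.0441) and *Flt4* (0.0460 ± 0.0452), each as mean ± SD of 3 libraries. The ranges of *Nrp1* and *Vegfb*, *Figf* and *Pgf*, and *Pgf* and *Kdr* overlapped, and the other neighbours were separate. In *Mkx*-/- tendons *Vegfb* (7.04 ± 0.687 CPM per kb) and *Nrp1* (6.47 ± 1.24) stood above *Nrp2* (5.33 ± 0.255), and *Pgf* (3.56 ± 1.81) above *Vegfc* (2.73 ± 0.286) and *Figf* (2.04 ± 0.966). There the ranges of all neighbours from *Vegfa* down to *Figf* overlapped, and *Kdr*, *Flt1* and *Flt4* followed separately at 0.731, 0.245 and 0.0782 CPM per kb.

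Endothelial markers were measured beside *Pgf*, *Kdr* and *Flt1*, none of which passed the test. The summed level of the 22 genes of the endothelial list was between 130 and 152 CPM in WT and 209, 228 and 297 CPM in *Mkx*-/- libraries. Of its 21 tested genes 19 were higher and 2 lower, with a median log2 fold change of 0.96. *Erg* and *Ecscr* passed the test with 2.12 and 1.43, where 3.18% of all genes tested were higher past it. At an unadjusted edgeR p under 0.05, 13 were higher and 0 lower, where 12.5% of all genes tested were higher. Without *Erg* and *Ecscr* the sum was 114 to 135 CPM in WT and 145, 163 and 243 CPM in *Mkx*-/- libraries. In *Mkx*-/- replicate 1 both sums lay above WT, the reduced one by less, while *Kdr* and *Flt1* lay within the WT range. *Tek* and *Eng*, the most abundant genes of the list in WT, had 0.02 and 0.44, and *Vwf* had 1.02. The pericyte and smooth muscle list, led in WT by *Pdgfrb*, *Cspg4* and *Acta2*, was at 993 CPM in *Mkx*-/- replicate 3. That library had the most *Pgf*, *Flt1* and *Kdr*, and the list was between 352 and 411 CPM in the other 5 libraries. Of its 10 genes, 0 passed the edgeR test and 4 were higher at an unadjusted p under 0.05 (12.5% of all genes tested). Of 6 Schwann cell genes, led by *Mbp*, all were higher and 0 passed the edgeR test, with a median of 0.93. At an unadjusted edgeR p under 0.05, 4 were higher (12.5% of all genes tested). Their summed level was 1711, 2383 and 2452 CPM in WT and 2905, 4608 and 5437 CPM in *Mkx*-/- libraries. This sum and the endothelial sum both had the same order over the *Mkx*-/- libraries as *Kdr*. The skeletal muscle sum, described below, ran the other way (2975, 1427 and 566 CPM). That of the pericyte and smooth muscle list was 376, 374 and 993 CPM. An order of 3 libraries is too short to show a relation. The part of these markers in the levels of *Pgf*, *Kdr* and *Flt1* was not tested.

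Set against the summed endothelial counts, the receptors overlapped between the genotypes. The ratio of *Kdr* counts to that sum was 0.0246, 0.0196 and 0.0295 in WT and 0.0146, 0.0264 and 0.0236 in *Mkx*-/- libraries, a log2 difference of -0.21 (two-sided exact permutation test, p = 0.6). For *Flt1* the log2 difference was -0.24 (two-sided exact permutation test, p = 0.7), and for *Flt4* it was 0.16 (two-sided exact permutation test, p = 0.9). Leaving *Erg* and *Ecscr* out of the list moved the differences of *Kdr* and *Flt1* to 0.026 and 0.00052. The log2 differences of *Nrp1* and *Nrp2* against the list were -0.91 and -1.41, with no overlap (two-sided exact permutation tests, p = 0.1 each, the smallest possible, and 0.25 when adjusted over the 5 ratios). Without *Erg* and *Ecscr* they were -0.66 and -1.17. The level of *Nrp1* itself overlapped between the genotypes, so its difference here reflects the higher endothelial sum.

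**Figure D4:**
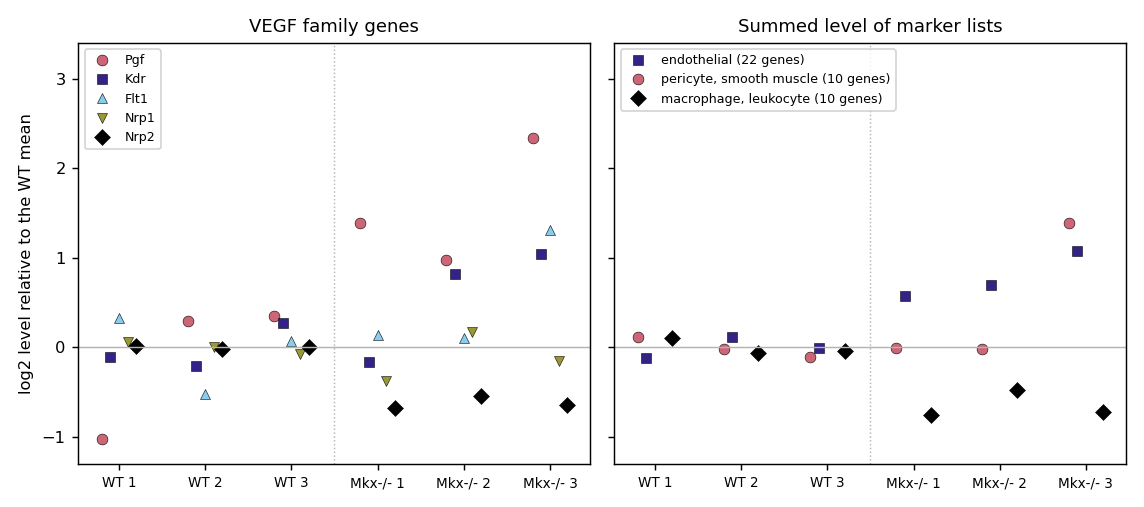
Level in each library relative to the WT mean (y axis, log2) for *Pgf*, *Kdr*, *Flt1*, *Nrp1* and *Nrp2* (left) and for the summed CPM of 3 marker lists (right). *Nrp2* and the macrophage and leukocyte list are low in all 3 *Mkx*-/- libraries, and *Pgf*, *Kdr*, *Flt1* and the endothelial and smooth muscle lists are highest in *Mkx*-/- replicate 3.

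Markers of muscle and fat were measured as well, since a tendon sample can hold both. Skeletal muscle genes, led in WT by *Myh1*, *Acta1* and *Myh2*, had a summed level that ranged from 99.3 to 417 CPM in WT and from 566 to 2975 CPM in *Mkx*-/- libraries. Of these 12 genes 11 were higher and 1 lower, with a median log2 fold change of 2.95. *Tnnt3* and *Tnni2* passed the test, where 3.18% of all genes tested were higher past it. At an unadjusted edgeR p under 0.05, 11 were higher (12.5% of all genes tested). Adipocyte genes were low, between 10.2 and 17.6 CPM in all 6 libraries, mostly from *Cd36* and *Fabp4*. *Lep* had 10, 5 and 11 counts in WT and 0 in each *Mkx*-/- library, and was removed by the filter on low counts.

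Class 3 semaphorins share the neuropilins with VEGF and signal through plexins. Of these 12 genes all were tested, and *Sema3a* alone was past the test, downward, where 2.26% of all genes tested were. *Sema3a* is a repulsive guidance cue that binds *Nrp1* and competes with *Vegfa*. It had 45.4, 46.4 and 62.8 CPM in WT and 18.2, 8.92 and 15.6 CPM in *Mkx*-/- libraries. All 3 *Mkx*-/- libraries were far below WT, with -1.86 on the log2 scale (SE 0.26, edgeR adjusted p = 0.00714), and *Sema3a* passed the test in all 15 alternatives. *Sema3b* and *Sema3c*, the most abundant semaphorins of the list, did not pass, at -0.51 and 0.21 on the log2 scale (edgeR adjusted p = 0.147 and 0.452). *Sema3f*, a ligand of *Nrp2*, had 57.7, 101 and 96.7 CPM in WT and 53.6, 32.3 and 53.4 CPM in *Mkx*-/- libraries, with a log2 fold change of -0.87 that passed DESeq2 (adjusted p = 0.0144) and not edgeR (adjusted p = 0.0917). DESeq2 also passed *Plxna2* downward and *Sema3e* and *Sema3g* upward (-1.24, 0.98 and 0.91 on the log2 scale in edgeR). Over the 12 genes the median was 0.10. At an unadjusted edgeR p under 0.05, 2 were higher and 4 lower, where 12.5% and 10.1% of all genes tested were. DESeq2 called 2 higher and 3 lower, where it called 4.90% and 3.60% of all genes it tested.

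Other genes of the VEGF pathway were counted in 4 lists, from the inducers of the ligands to the genes that respond to VEGF. Of 69 genes, 62 were tested and 3 passed the test, all higher (*Pcsk5*, *Adamts3* and *Icam1*), where 3.18% of all genes tested were higher. The median log2 fold change was 0.14, and 15 genes were higher and 5 lower at an unadjusted p under 0.05, which 12.5% of all genes tested reached upward and 10.1% downward. DESeq2 called 8 of the genes higher and 2 lower, where it called 4.90% of all genes it tested higher and 3.60% lower.

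Of the genes that process ligands, *Pcsk5* and *Adamts3* were higher. Pro-VEGF-C and pro-VEGF-D are cut by proprotein convertases such as that of *Pcsk5*, and ADAMTS3 cuts pro-VEGF-C into its active form. *Pcsk5* had 31.4, 31.9 and 25.6 CPM in WT and 130, 98.5 and 109 CPM in *Mkx*-/- libraries. The groups were far apart (log2 fold change 1.93, SE 0.15, edgeR adjusted p = 0.000878), and the gene passed the test in all 15 alternatives. *Adamts3*, which also trims procollagen, was at 82.4 ± 14.5 CPM in WT and at 148 ± 25.7 CPM in *Mkx*-/- tendons (SD, n = 3 each; log2 fold change 0.85, edgeR adjusted p = 0.0342). With each library removed in turn it passed the test in 1 of 6 cases, the removal of WT replicate 1. *Ccbe1*, the cofactor of ADAMTS3, was at or below 0.793 CPM in every library and was not tested. It was counted 1, 1 and 1 times in WT and 6, 2 and 10 times in *Mkx*-/- libraries. *Furin*, another convertase of these ligands, stood at -0.36 on the log2 scale (edgeR adjusted p = 0.230), and the abundant *Hspg2* and *Ctnnb1* had 0.16 and 0.21. *Itgb3*, an integrin subunit that partners *Kdr*, had 0.82 and passed DESeq2 (adjusted p = 0.0264) and not edgeR (adjusted p = 0.0723). The median of the list of processing genes and receptor partners was 0.21 over 11 genes.

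None of the 9 inducers of the ligands passed the edgeR test, and 0 passed in DESeq2. At an unadjusted edgeR p under 0.05, 1 was lower, *Ppargc1a* (10.1% of all genes tested). *Ppargc1a* did pass in edgeR with the filter of 1 count in any library. *Hif1a*, the hypoxia factor that induces *Vegfa*, had 35.1, 42.2 and 62.5 CPM in WT and 59.4, 36.4 and 62.7 CPM in *Mkx*-/- libraries, so the genotypes overlapped (log2 fold change 0.18, edgeR adjusted p = 0.738). *Zfp36l1* and *Egln1*, the most abundant of the list in WT, stood at -0.17 and 0.24 on the log2 scale, and the list's median was -0.10. Of 30 tested signalling genes downstream of the receptors, 0 passed the edgeR test and 7 were higher and 4 lower at an unadjusted p under 0.05 (12.5% and 10.1% of all genes tested), while DESeq2 passed *Grb10*, *Pxn* and *Fyn* upward and *Pik3r1* and *Plcg1* downward. *Grb10* and *Akt1* were the most abundant (0.66 and -0.06 on the log2 scale), and the list's median was 0.10.

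Among 12 tested response genes the median log2 fold change was 0.55. *Icam1*, a leukocyte adhesion molecule of activated endothelium, rose from between 1.77 and 1.89 CPM in WT to between 3.93 and 4.85 CPM in *Mkx*-/- libraries (log2 fold change 1.27, SE 0.22, edgeR adjusted p = 0.0185). It still passed on removal of WT replicate 1 or *Mkx*-/- replicate 2, and no longer on removal of any of the other 4 libraries. *Nr4a1* and *Hlx*, the most abundant in WT, had 0.75 and -0.22 (edgeR adjusted p = 0.0959 and 0.489), and *Nr4a1* passed DESeq2 (adjusted p = 0.0253). *Dll4*, the Notch ligand of tip cells, had 1.08 to 1.52 CPM in WT and 2.47 to 3.23 CPM in *Mkx*-/- libraries (log2 fold change 1.08, edgeR adjusted p = 0.0665). *Esm1*, another tip cell gene, was at or below 0.476 CPM in every library.

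**Figure D5:**
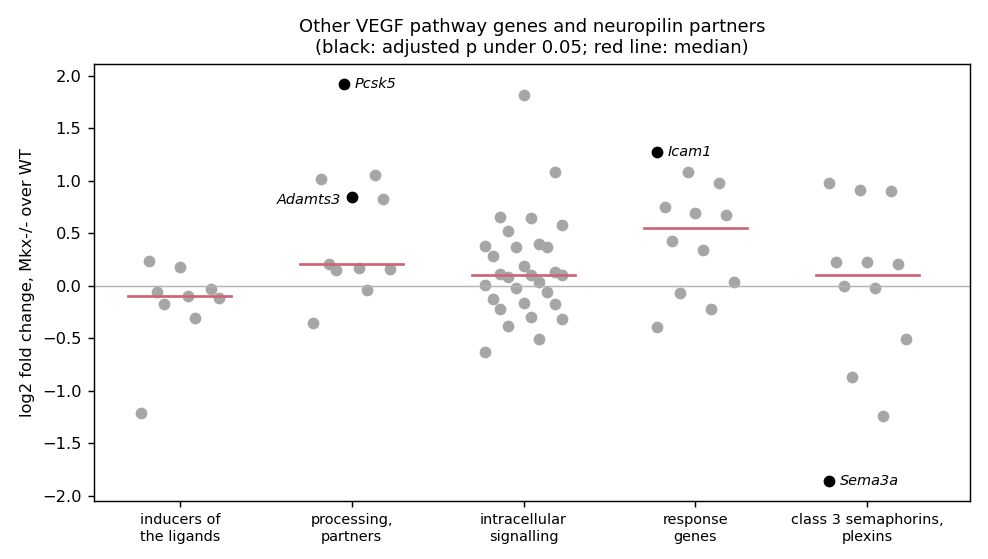
Log2 fold changes (y axis, *Mkx*-/- over WT) of the tested genes of 4 VEGF pathway lists and of class 3 semaphorins and plexins, with genes past an adjusted p of 0.05 in black and list medians as red lines. *Pcsk5* (1.93), *Adamts3* (0.85) and *Icam1* (1.27) are higher and *Sema3a* (-1.86) is lower.

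Genes with profiles like those of the family were ranked by the root mean square difference of centred log2 CPM over the 6 libraries, among genes of at least 1 CPM. Nearest to *Nrp2* were *Synj2*, *Trim2* and *Enox2*, at 0.023, 0.042 and 0.047, where the median over all such genes was 0.38. Nearest to *Pgf* were *Rimkla*, *Nfatc2* and *Serpinb6b*, at 0.18, 0.20 and 0.23, and nearest to *Kdr* were *Sorcs1*, *Kcna2* and *Hspa12a*, at 0.056, 0.062 and 0.077. For *Vegfa* the nearest were *Frrs1*, *Kera* and *Efna5*, and for *Flt1* *Siah1b*, *Tmigd1* and *Lrrn1*. *Clec14a*, an endothelial gene, was the nearest to *Figf* at 0.11. The nearest genes were *Lancl1*, *Dedd2* and *Irf2bp2* for *Vegfb*, *Ptplad1*, *Nfkbiz* and *Trim44* for *Vegfc*, and *Gm19221*, *Xpo4* and *Dock1* for *Nrp1*. With 6 libraries that these genes share, such likeness describes the libraries only.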

How the data were processed

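The material was bulk RNA-seq of tail tendon, 3 libraries of each genotype. The authors sequenced total RNA on the Ion Proton system, removed adaptors and low-quality reads, aligned to mm9 with MapSplice, and deposited raw counts per gene symbol without normalization. The counting program, its annotation and its treatment of strand are not given in the sources used here. All 6 columns matched samples by label, and 0 were left unused.

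Normalized CPM and fold changes were computed from the deposited counts with edgeR 4.0.16 in R 4.3.3 (TMM, filterByExpr, quasi-likelihood fit on genotype, Benjamini-Hochberg), with DESeq2 1.42.0 as an alternative, and both were tested on simulated data. Standard errors and 95% intervals came from the fold change and the quasi-likelihood F statistic. Ratios used counts plus 0.5, with exact permutation tests over samples. The text names the 10 genes, those past the test and the most abundant of each list, and the 3 nearest profiles. *Myh11*, *Ddx3y*, *Hif1a*, *Furin*, *Ccbe1*, *Dll4*, *Esm1*, *Ppargc1a*, *Prox1*, *Ccl21a*, *Mmrn1*, *Reln*, *Sema3f* and the genes past DESeq2 alone were picked for the text with their values known. The family and the lists were chosen with earlier results of these data known. Of 174 listed symbols, 173 were in the table (*Hras* was not). Replicate libraries differed by a chi-square of 7.59 to 36.4 per degree of freedom in raw counts. This sets them apart from resequencing of 1 library and cannot show that they are separate animals. Each was counted as a sample of its own. Alternatives were DESeq2, RLE, upper-quartile and library-size scaling, filters of 1 count in any and 10 counts in every library, a robust fit, removal of skeletal muscle genes, the replicate number as a block, each library left out and, for ratios, a pseudocount of 0.1 and other denominators. The most abundant genes of a list were taken by their WT mean, and 1 marker list is reported in part.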

Additional observations from a re-analysis of the deposited data

How the results depend on the processing

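Over 15 alternatives, *Vegfa*, *Vegfb*, *Vegfc*, *Pgf*, *Flt1*, *Kdr* and *Nrp2* kept their direction, and 8 of the 15 left *Nrp2* past the threshold and 3 put *Pgf* past it. The cause of the differences below was not tested, except that library-size scaling moved the median of all genes to 0.25, against which *Nrp2* was at -0.62. DESeq2 gave *Pgf* 1.68, with 1 family member higher, 8 pathway genes higher and 2 lower, and 2 semaphorins or plexins higher and 3 lower. The filter of 1 count in any library gave *Pgf* 1.70, with 1 member higher, 10 pathway genes higher and 2 lower, and 2 partners higher and 3 lower. Library-size scaling gave *Pgf* 1.97, *Nrp1* 0.16 and *Nrp2* -0.37, with 1 member higher and 0 lower, 11 pathway genes higher and 2 partners higher. RLE, upper-quartile scaling, the robust fit, removal of muscle genes and the filter of 10 counts changed no call of the 10 genes.

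With the replicate block, *Nrp2* had -0.62 (edgeR adjusted p = 0.0588), so 0 members were lower, 1 pathway gene and 1 partner were higher, and 264 genes were higher and 170 lower in all, against 463 and 329 without it. The block changed no other call of the 10 genes. Same-numbered libraries correlated at -0.00031, -0.24 and 0.31 in their deviations from the group means. The libraries numbered 3 were each other's best match, and not every other library correlated best with its own number. Deviations within a group sum to 0, so these correlations depend on each other and cannot decide whether same-numbered libraries were paired. The labels give only the number.

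Leaving out each library gave *Nrp2* -0.66 to -0.61, *Figf* -0.067 to 1.01, 0 to 1 member lower, 1 to 6 pathway genes higher and 0 to 1 lower, and 0 to 1 partner higher and 1 to 2 lower. *Adamts3* was lost in 5 of these 6 fits, *Icam1* in 4 and *Pcsk5* and *Sema3a* in 0. The log2 ratios with a change of sign ran from -0.20 to 0.30 (*Flt1* to *Kdr*), -0.099 to 0.93 (*Flt4* to *Kdr*), -0.38 to 0.042 (*Kdr* to endothelial markers) and -0.47 to 0.85 (*Flt4* to endothelial markers). With the mean log2 CPM of the endothelial list, *Flt4* was at -0.24. Without *Erg* and *Ecscr*, a choice made after seeing the data, *Flt1* was at 0.00052 and *Kdr* at 0.026. Depth limits *Flt4* (1 to 13 counts a library), *Flt1* (13 to 57) and *Pgf* (11 to 112).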
